A study of Mus musculus with 2 samples.

Results

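The H2 genes are the mouse major histocompatibility genes, and they were examined here for binding of CTCF in newborn heart. Members were all genes of any type in GENCODE M21 whose names begin with H2- on chromosome 17. The rule took 45 of 55413 genes on the assembled chromosomes, of which 34 are protein-coding and 11 are pseudogenes. By name, 32 are class I genes (H2-K, H2-D, H2-Q, H2-T and H2-M genes and H2-Bl), 12 are class II genes (H2-A, H2-E, H2-O, H2-DM and H2-P genes) and 1, H2-Ke6, is a steroid dehydrogenase gene named after the locus it lies in. The study sequenced DNA bound by CTCF (ChIP-seq, chromatin immunoprecipitation followed by sequencing) from heart tissue of the mouse strain B6NCrl at postnatal day 0. Its 2 libraries form 1 group, with no other genotype, treatment or age. The labels call them biological replicates but give both the same tissue sample and donor, and differences between them may therefore be technical. Sex was not collected. A CTCF peak list cannot check the tissue label, and whole heart mixes muscle cells with vessel, connective tissue and blood cells.

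Class I molecules present peptides from inside the cell to CD8 T cells, and class II molecules present peptides taken up from outside to CD4 T cells. The class I genes grew by repeated duplication, so that neighbouring copies can be nearly identical, and the numbers of genes differ between mouse strains. CTCF is a zinc finger protein that binds a long DNA motif, stops the cohesin ring that extrudes chromatin loops, and separates enhancers from promoters. In the human class II region it is known to bind between genes and to take part in contacts between their promoters.

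The peaks used were those of the authors' optimal list, which holds 44533 peaks and was derived from both libraries. The signal is the authors' own value for each peak, on a scale with no stated unit, and it was compared within a list only. Pooled signals come from the optimal list, where the median of all peaks was 60.8. Signals of replicate 1 and replicate 2 come from the relaxed list of each library, in which a peak was matched when its summit lay within 100 bp. Of the 177 peaks in the locus, 172 were found in both libraries. An identical summit stood in the authors' conservative list for 161 of them, and that list holds 176 peaks in the locus. For the 172 peaks, the median log2 ratio of replicate 2 to replicate 1 was -0.25. There is 1 group and neighbouring genes share peaks, so no test was made over genes, and exact binomial intervals (95%) cover counting error only.

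A summit lay within 10 kb of the 5′ end of 22 of the 45 H2 genes, or 48.9% (interval 33.7% to 64.2%). The same was true of 38% of all genes, 44.5% of all genes of chromosome 17 and 50.3% of all protein-coding genes, so the share over all H2 genes lay near its backgrounds. The classes differed from each other. A summit was found near 11 of 32 class I genes, or 34.4% (interval 18.6% to 53.2%), against 10 of 12 class II genes, or 83.3% (interval 51.6% to 97.9%). Among protein-coding members the counts were 9 of 24 for class I (37.5%) and 7 of 9 for class II (77.8%). The other genes lying in the locus stood between the classes, with 180 of 298, or 60.4%.

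The nearest summit lay at a median of 14.7 kb from the 5′ end for class I genes (1.05 to 233 kb), against 5.74 kb for class II genes (0.105 to 12.1 kb). All genes had a median of 17.7 kb, and the other protein-coding genes of the locus had a median of 5.03 kb. Few H2 promoters carried a peak. A summit within 1 kb was found at 0 of 32 class I genes and 2 of 12 class II genes, H2-Pb and H2-DMa, against 12.2% of all genes and 21.2% of all protein-coding genes. The H2-DMa summit, at a signal of 12.1, is not in the conservative list, which gave 1 of 12 class II genes.

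The threshold of 10 kb divided genes with similar distances. H2-M10.5-ps1 was nearest to it inside among the class I genes, with its only summit at 9.02 kb, while H2-M6-ps at 10.07 kb, H2-M10.3 at 10.62 kb and H2-T22 at 10.95 kb were just outside. H2-DMb1 at 11.66 kb and H2-Eb2 at 12.06 kb were the class II genes outside it.

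**Figure D1:**
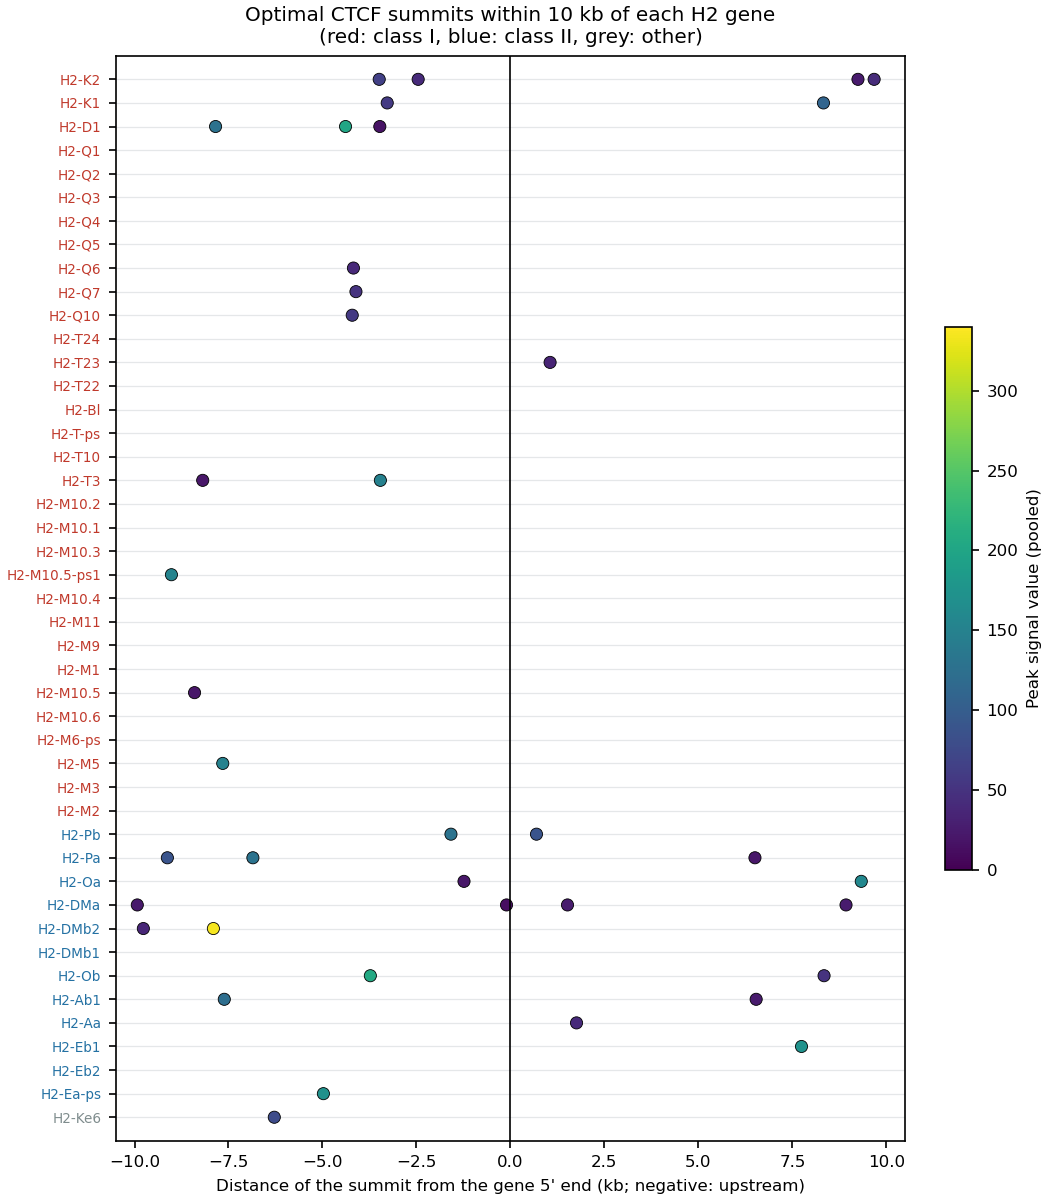
Positions of optimal CTCF summits within 10 kb of the 5′ end of each H2 gene, in kb with negative values upstream. Each point is a summit coloured by its pooled signal, class I genes stand above class II genes, and 21 class I genes but 2 class II genes have none.

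The classical class I genes had summits. These are H2-K1 and H2-D1, whose products are displayed on nearly all nucleated cells, and the pseudogene H2-K2 stands beside them. H2-D1 had a summit 4387 bp upstream with a pooled signal of 201, at 105 in replicate 1 and 96.2 in replicate 2. It was the strongest peak near any class I gene, although its best match to the CTCF core had 3 mismatches and so was not counted as a core. A further summit 7844 bp upstream of H2-D1 had a signal of 128, at 68.3 in replicate 1 and 59.8 in replicate 2. H2-K1 had its strongest summit 8325 bp past its 5′ end, beyond the gene, at a signal of 110, with 60.2 in replicate 1 and 51.3 in replicate 2. H2-K2 had 4 summits within the window, the strongest at 63.9.

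A site at nearly the same distance upstream recurred along the K and Q genes. The Q genes encode nonclassical class I molecules, among them the secreted H2-Q10 and the membrane-anchored H2-Q7 of the Qa-2 antigen. Summits lay 3491 bp upstream of H2-K2, 3278 bp upstream of H2-K1, 4177 bp upstream of H2-Q6, 4110 bp upstream of H2-Q7 and 4209 bp upstream of H2-Q10. A sixth copy lay 24.4 kb upstream of H2-Q1, and a seventh, with no peak in any of the lists, lay 4.13 kb upstream of H2-Q5. All 7 copies hold the same 14 bases of the CTCF core, on the strand of the nearest H2 gene, and 300 bp around the summits were 91.6% to 97.0% identical between copies. They are shown in the mm10 reference, 5′ to 3′ on the strand of the core, because identical cores stand here beside unequal signals. Capitals mark the core, whose coordinates are given, and 20 bases on each side are in lower case.
H2-K2 copy, chr17:33982349-33982362, minus strand: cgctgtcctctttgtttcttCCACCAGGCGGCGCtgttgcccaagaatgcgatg
H2-K1 copy, chr17:34003629-34003642, minus strand: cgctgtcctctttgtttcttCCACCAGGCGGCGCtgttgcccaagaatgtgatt
H2-Q1 copy, chr17:35296007-35296020, plus strand: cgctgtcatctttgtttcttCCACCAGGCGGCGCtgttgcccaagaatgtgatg
H2-Q5 copy, chr17:35389985-35389998, plus strand: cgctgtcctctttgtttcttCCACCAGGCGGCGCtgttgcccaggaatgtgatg
H2-Q6 copy, chr17:35420664-35420677, plus strand: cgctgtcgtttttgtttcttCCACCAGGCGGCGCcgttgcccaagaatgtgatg
H2-Q7 copy, chr17:35435037-35435050, plus strand: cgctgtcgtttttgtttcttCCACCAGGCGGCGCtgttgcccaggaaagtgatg
H2-Q10 copy, chr17:35465871-35465884, plus strand: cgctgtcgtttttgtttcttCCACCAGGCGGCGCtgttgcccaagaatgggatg

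The 6 copies with a peak were all moderate or weak. The H2-K2 copy had a pooled signal of 63.9, with 36.8 in replicate 1 and 26.0 in replicate 2. The H2-K1 copy had 57.8, with 28.1 in replicate 1 and 29.4 in replicate 2. The H2-Q10 copy had 56.8, with 30.8 in replicate 1 and 25.3 in replicate 2. These are the upper members of the family, close to the median of all optimal peaks. The H2-Q7 copy had 49.7 (25.8 in replicate 1 and 22.1 in replicate 2), the H2-Q1 copy 42.4 (28.6 in replicate 1 and 14.1 in replicate 2) and the H2-Q6 copy 39.6 (20.1 in replicate 1 and 15.5 in replicate 2). Copied sequence can limit where reads are placed. Of the 50-base words in the 300 bp around it, 51.0% occur once in the genome at the H2-Q5 copy, the lowest of the 7, and 57.4% to 93.6% at the copies with a peak. The part of sequence uniqueness in the missing peak was not tested.

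A second family held stronger peaks at the K, D and Q ends. Its copies lie 10.14 kb past the 5′ end of H2-K2, 12.23 kb past that of H2-D1 and 18.23 kb upstream of H2-Q1, with cores on the strand opposite to the gene. They are shown because the copy whose core differs from the other copies did not have the lowest signal. Each of the 3 cores has 1 mismatch to the CTCF core.
H2-K2 end, chr17:33968682-33968695, plus strand: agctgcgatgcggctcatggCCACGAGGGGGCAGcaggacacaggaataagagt
H2-D1 end, chr17:35274946-35274959, minus strand: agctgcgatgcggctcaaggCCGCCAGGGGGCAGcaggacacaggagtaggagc
H2-Q1 end, chr17:35302163-35302176, minus strand: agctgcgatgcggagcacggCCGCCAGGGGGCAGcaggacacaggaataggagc

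Positions in a core are counted from 1 at its 5′ end. The H2-K2 copy differs from that at H2-D1 by G3A and C5G, and had a signal of 197, with 101 in replicate 1 and 94.1 in replicate 2. The H2-D1 copy had 189, with 105 in replicate 1 and 84.8 in replicate 2. The H2-Q1 copy had 148, with 83.4 in replicate 1 and 68.0 in replicate 2. In each library the H2-Q1 copy was the lowest, and the order of the other copies differed between the libraries.

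**Figure D2:**
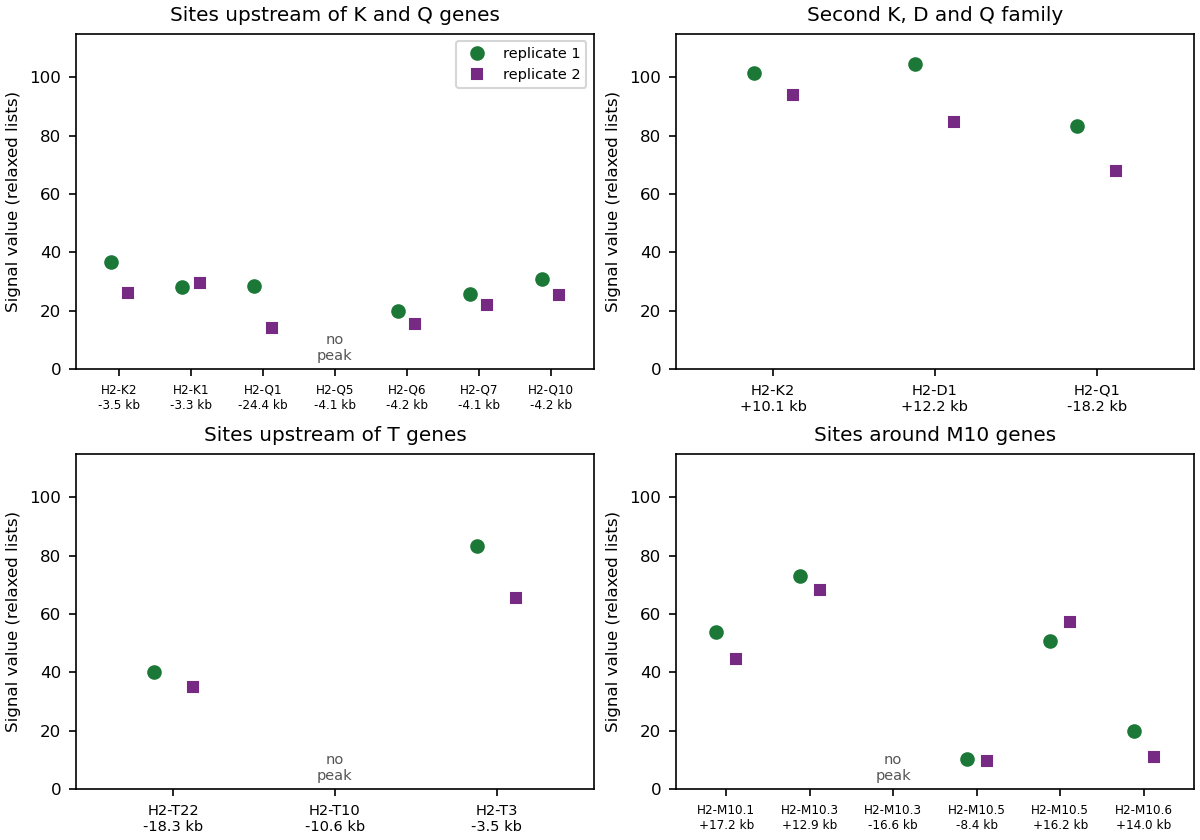
Signal of copied CTCF sites near class I genes in replicate 1 (circles) and replicate 2 (squares), for 4 families, with the nearest H2 gene and the distance from its 5′ end on the horizontal axis. The copies at H2-Q5, at H2-T10 and 16.59 kb upstream of H2-M10.3 have no peak, and the copy 8.4 kb upstream of H2-M10.5 is at 10.2 in replicate 1 and 9.57 in replicate 2.

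Between the sites at H2-Q1 and H2-Q6 there was a stretch of 118.5 kb with no optimal summit, which holds the 5′ ends of H2-Q1, H2-Q2, H2-Q3, H2-Q4 and H2-Q5. Of these genes, H2-Q1 alone had a relaxed pooled peak above the upper quartile of that list (8.91). This peak had a signal of 32.2, and H2-Q1 counted as having a summit in the conservative list and among the strongest peaks of either library. H2-Q2 and H2-Q3 had relaxed peaks of at most 5.31 and 8.73, and H2-Q4 and H2-Q5 had none.

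The T genes encode nonclassical molecules such as H2-T23 (Qa-1), the ligand of an inhibitory receptor on natural killer cells, and H2-T3, the thymus leukaemia antigen of gut epithelium. H2-T23 and H2-T3 were the only T genes with a summit in the optimal list. The H2-T23 summit lay 1054 bp inside the gene, in a coding exon, at a signal of 33.7 (18.9 in replicate 1 and 15.2 in replicate 2), and held no core. H2-T3 had a summit 3460 bp upstream at 148, with 83.3 in replicate 1 and 65.4 in replicate 2, among the stronger peaks near class I genes. H2-T24 and H2-T22 gained a summit when replicate 1 alone was used, and H2-T-ps and H2-T10 when replicate 2 alone was used. H2-Bl had no peak even in the relaxed pooled list.

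The site upstream of H2-T3 has copies upstream of H2-T22 and H2-T10. Bases outside the core differ between the copies as well, with aligned stretches 90.6% to 90.7% identical. The copies are shown because their cores differ at few bases and all of their sequence is unique at the length used.
H2-T22 copy, chr17:36061025-36061038, minus strand: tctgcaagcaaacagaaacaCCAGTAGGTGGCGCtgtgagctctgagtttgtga
H2-T10 copy, chr17:36132076-36132089, minus strand: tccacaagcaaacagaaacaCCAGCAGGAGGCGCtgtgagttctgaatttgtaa
H2-T3 copy, chr17:36193742-36193755, minus strand: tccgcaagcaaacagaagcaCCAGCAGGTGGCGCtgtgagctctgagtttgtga

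Against the H2-T22 core, the H2-T3 core has T5C and the H2-T10 core has T5C and T9A. The H2-T3 copy had the signals given above, and the H2-T22 copy, 18.29 kb upstream, had 76.3, with 40.1 in replicate 1 and 35.2 in replicate 2. The H2-T10 copy, 10.62 kb upstream, had no peak in any list, including the relaxed ones. At all 3 copies 100% of the 50-base words occur once in the genome, but the read length is unknown. The part of sequence uniqueness, of the core changes and of the changes outside the core in the missing peak was not tested. The stretch without an optimal summit between the H2-T22 and H2-T3 copies measured 132.7 kb and held the 5′ ends of H2-Bl, H2-T-ps, H2-T10 and H2-T3.

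The M genes are the most distant class I genes, among them the H2-M10 genes, which are expressed with pheromone receptors in the vomeronasal organ, and H2-M3, which presents formylated peptides. Of the 14 M genes, 3 had an optimal summit within 10 kb. H2-M10.5-ps1 had a summit 9018 bp upstream at 153, with 69.0 in replicate 1 and 82.5 in replicate 2. H2-M5 had a summit 7653 bp upstream, 3.97 kb upstream of the imprinting regulator Zfp57, at 149, with 75.0 in replicate 1 and 72.0 in replicate 2. The H2-M10.5 summit, 8403 bp upstream, was the weakest strongest peak of any H2 gene at 21.2, with 10.2 in replicate 1 and 9.57 in replicate 2. H2-M10.1, H2-M10.2, H2-M10.3, H2-M10.4, H2-M10.6, H2-M11, H2-M9, H2-M1, H2-M6-ps, H2-M3 and H2-M2 had none, and the strongest relaxed pooled peak near any of these was 7.86, at H2-M10.2.

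That weak H2-M10.5 site belongs to a family of 6 copies around the M10 genes, shown because changes at position 11 of the core stand at both of its lowest copies.
H2-M10.1 copy, chr17:36308996-36309009, plus strand: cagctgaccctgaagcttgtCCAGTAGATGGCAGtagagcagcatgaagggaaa
H2-M10.3 copy, chr17:36355472-36355485, plus strand: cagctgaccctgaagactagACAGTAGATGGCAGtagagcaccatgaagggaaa
H2-M10.3 upstream copy, chr17:36385001-36385014, plus strand: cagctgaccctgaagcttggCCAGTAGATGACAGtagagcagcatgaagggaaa
H2-M10.5 upstream copy, chr17:36764508-36764521, minus strand: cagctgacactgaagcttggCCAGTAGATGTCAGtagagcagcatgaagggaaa
H2-M10.5 copy, chr17:36789040-36789053, minus strand: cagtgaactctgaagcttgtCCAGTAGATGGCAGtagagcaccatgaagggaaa
H2-M10.6 copy, chr17:36826228-36826241, minus strand: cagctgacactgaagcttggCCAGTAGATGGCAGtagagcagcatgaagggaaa

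Relative to the H2-M10.1 core, the copy with G11A had no peak in any list and the copy with G11T had a signal of 21.2. The copy with C1A had the strongest peak of the family, at 139, with 73.1 in replicate 1 and 68.1 in replicate 2. The 3 copies with the H2-M10.1 core did not share a level, and the core at H2-M10.6 reaches past 50 bp from its summit. The copies at H2-M10.5 and H2-M10.1 had signals of 106 (50.8 in replicate 1 and 57.4 in replicate 2) and 99.2 (53.9 in replicate 1 and 44.4 in replicate 2), while that at H2-M10.6 had 32.4 (19.8 in replicate 1 and 11.1 in replicate 2). The unique share of 50-base words was 60.6% at the G11A copy, 76.9% at the G11T copy, and 65.7% to 90.8% at the other copies. The part of the core changes and of the unique share in the missing and weak peaks was not tested.

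The longest stretch of the locus without an optimal summit, 307.7 kb, lay among the M genes and held the 5′ ends of H2-M10.4, H2-M11, H2-M9 and H2-M1. The unique share within 10 kb of these 5′ ends was 80.9% to 96.8%. H2-M2, at the far end of the locus, was the member farthest from any summit, at 232.8 kb.

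Class II genes encode the chains of the classical molecules A and E, the chains of H2-DM, which loads peptides, and those of H2-O, which restrains H2-DM. The strongest peak near any H2 gene stood among the loading genes. It lay 7902 bp upstream of H2-DMb2, in an exon of H2-DMa outside its coding sequence, and ranked 69 of all optimal peaks. Its signal was 335, with 180 in replicate 1 and 156 in replicate 2. The summits within 10 kb of the 5′ end of the H2-DMa gene record were weak, from 12.1 to 26.4. The strongest of them had 21.6 in replicate 1 and no match in replicate 2. The summit nearest to that 5′ end lay inside the gene Brd2, so these values need not describe other starts of H2-DMa. With the 5′ ends of all transcripts, the class II median of the strongest signal was 158 instead of 144. H2-DMb1, the neighbour of H2-DMb2, had no summit within 10 kb.

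H2-Ob had a summit 3727 bp upstream at 205, with 118 in replicate 1 and 87.0 in replicate 2. H2-Oa had a summit 9331 bp past its 5′ end at 158, with 86.4 in replicate 1 and 70.6 in replicate 2. In the pooled list, H2-D1 alone among class I genes had a peak above that of H2-Oa, and none had one above that of H2-Ob. This order did not hold in replicate 2. There H2-D1 (96.2) was above H2-Ob, and H2-M10.5-ps1 (82.5) and H2-M5 (72.0) were above H2-Oa.

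Of the classical class II genes, the chain genes H2-Ab1, H2-Aa and H2-Eb1 had summits. H2-Eb1 had a summit in an intron 7741 bp past its 5′ end at 172, with 97.8 in replicate 1 and 76.6 in replicate 2. H2-Ab1 had a summit 7612 bp upstream, in an intron of H2-Ob, at 122, with 66.9 in replicate 1 and 53.6 in replicate 2. H2-Aa had a weaker summit in an exon outside the coding sequence, 1757 bp past its 5′ end, at 40.9, with 21.9 in replicate 1 and 19.3 in replicate 2. H2-Eb2, a gene related to H2-Eb1, had none within 10 kb. H2-Ea-ps, which the annotation lists as a polymorphic pseudogene and which is the gene for the alpha chain of E, had a summit 4976 bp upstream at 170, with 94.1 in replicate 1 and 75.5 in replicate 2.

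The pseudogenes H2-Pb and H2-Pa had the same strongest peak, 1583 bp upstream of H2-Pb and 6.85 kb upstream of H2-Pa, at 130, with 69.3 in replicate 1 and 58.3 in replicate 2. H2-Pb also had a summit 692 bp inside at 88.6. H2-Ke6, the member of neither class, had a summit 6282 bp upstream, in an intron of Rxrb, at 77.3, with 36.8 in replicate 1 and 36.6 in replicate 2.

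The cores of the class II region are shown for 4 of its strong sites, none of which belonged to a family of copies.
H2-Oa site, chr17:34101658-34101671, plus strand: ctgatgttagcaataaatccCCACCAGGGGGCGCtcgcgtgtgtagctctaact
H2-DMb2 site, chr17:34135419-34135432, plus strand: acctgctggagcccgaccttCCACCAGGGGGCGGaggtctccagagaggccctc
H2-Ob site, chr17:34235168-34235181, minus strand: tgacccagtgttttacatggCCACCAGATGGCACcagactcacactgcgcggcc
H2-Ea-ps site, chr17:34349613-34349626, minus strand: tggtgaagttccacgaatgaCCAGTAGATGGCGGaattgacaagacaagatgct

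Along the chromosome, the cores at H2-Oa and H2-DMb2 were on the plus strand and those at H2-Ob and H2-Ea-ps on the minus strand. The core of the weaker H2-Ab1 site, between H2-Ob and H2-Ea-ps, was on the plus strand with 2 mismatches.

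The strongest peak of each gene was lower near class I genes. Its pooled signal had a median of 63.9 over the 11 class I genes with a summit (21.2 to 201), against 144 over the 10 class II genes (26.4 to 335), while the median over all genes with a summit was 86.5. In replicate 1 the same peaks had medians of 36.8 for class I and 77.8 for class II, and in replicate 2 of 26.0 for class I and 70.6 for class II, the last over 9 genes. Both pooled ranges overlapped widely. In the pooled list, class I genes held peaks above the class II median at H2-D1, H2-T3, H2-M10.5-ps1 and H2-M5. The log2 difference of the medians, class I minus class II, was -1.17 in the pooled list. With the summits taken from each library alone it was -1.46 in replicate 1 and -1.44 in replicate 2 (SD 0.01, n = 2). Each library alone gave 14 class I genes with a summit, partly different genes. The SD is therefore not the spread over the same peaks, for which the medians of each library are given above. The pooled difference depends on the window and was -0.57 at 5 kb and -0.34 at 50 kb.

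**Figure D3:**
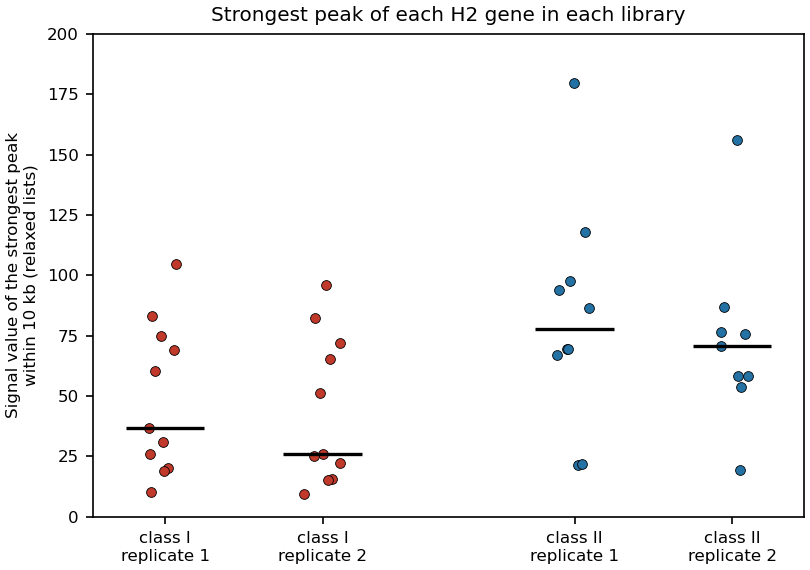
Signal of the strongest optimal peak within 10 kb of each H2 gene that has such a peak, in each library, with class I genes at left and class II genes at right and a bar at the median. Class I medians are 36.8 in replicate 1 and 26.0 in replicate 2, against class II medians of 77.8 and 70.6.

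Copied sequence went with class. Families were made from sites of which less than 50% was masked as repeat. Of the 11 class I genes with a summit, 9 had at least 1 summit in such a family, and 9 of their 18 summits were in one, against 0 of 17 summits of the 10 class II genes. With masked sites included, 13 of 18 class I summits and 1 of 17 class II summits, near H2-DMa, had a copy. Of the 141 locus peaks not near an H2 5′ end, 19 had a copy with the same limit and 28 with masked sites included. The sequence around class I genes was also less unique, with a median of 80.7% of 50-base words within 10 kb occurring once in the genome (36.8% to 97.6%), against 96.9% around class II genes (at most 99.4%). Class I genes with a summit had a median of 88.0%, and those without had 80.5%.

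Over all genes of chromosome 17 the share with a summit moved with the unique share. It was 9.09% for genes under 60% unique, 18.1% from 60% to 80%, 28.1% from 80% to 90%, 49.9% from 90% to 95% and 54.0% above that. In the same ranges of unique share, class I genes had summits at 3 of 8, 2 of 6, 3 of 11, 2 of 4 and 1 of 3. Class II genes lay mostly in the highest range, where 8 of 9 had a summit. The others had summits at 1 of 1 from 60% to 80% and 1 of 2 from 80% to 90%. Few genes of the classes could be set side by side at an equal unique share, and the part of uniqueness in the class difference was not tested. It could bear on each count of class I genes given above.

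**Figure D4:**
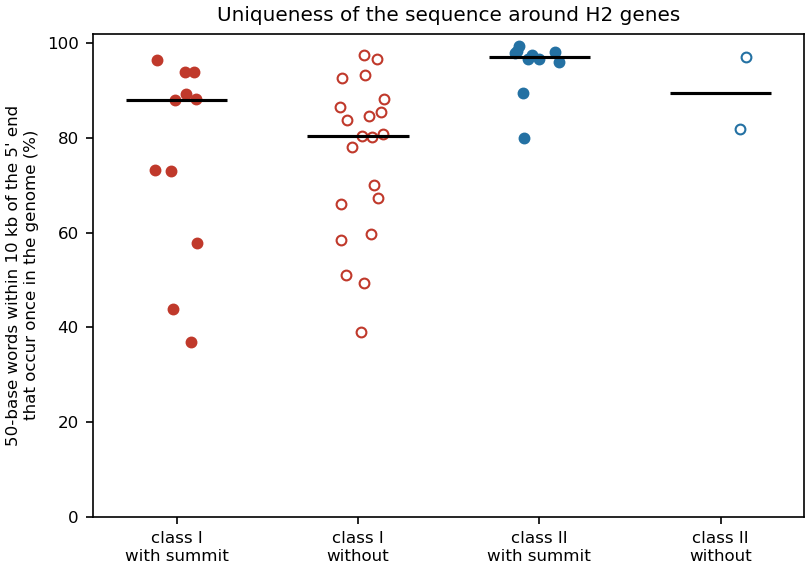
Share of 50-base words within 10 kb of each H2 gene 5′ end that occur once in the mm10 genome, in percent, for class I and class II genes with and without an optimal summit in that window, with a bar at the median. Class I genes spread from 36.8% to 97.6%, while most class II genes lie close to their highest value, 99.4%.

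The whole locus, from the first to the last H2 gene with 100 kb on each side (chr17:33874659-37583552 of mm10), held 177 peaks in 3.71 Mb, or 47.7 peaks per Mb. The rest of chromosome 17 held 19.4 and the assembled genome 16.8 peaks per Mb. The locus is also dense in genes, at 92.5 genes per Mb of any type against 25.4 over chromosome 17. Counted per gene the order turned, with 51.6 peaks per 100 genes in the locus against 80.9 over chromosome 17.

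Within the locus, the class I clusters other than K held fewer peaks per Mb than the locus as a whole. Of these, only T held fewer than the rest of chromosome 17. Each cluster ran from the start of its first gene to the end of its last. Summits upstream of H2-K1, H2-Ea-ps, H2-D1 and H2-T3 were therefore counted outside the clusters. The D and Q cluster held 6 peaks (28.3 per Mb), the T cluster 2 (10.8 per Mb) and the M cluster 26 (21.7 per Mb), while the short K cluster held 3 (117 per Mb). The class II cluster held 24 peaks (88.6 per Mb). The stretch between class II and D held 54.5 peaks per Mb and that between Q and T held 84.7, while the 100 kb beyond the M cluster held 0 peaks. The 36 peaks within 10 kb of an H2 5′ end had a median signal of 53.3, against 74.9 for the other 141 peaks of the locus.

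**Figure D5:**
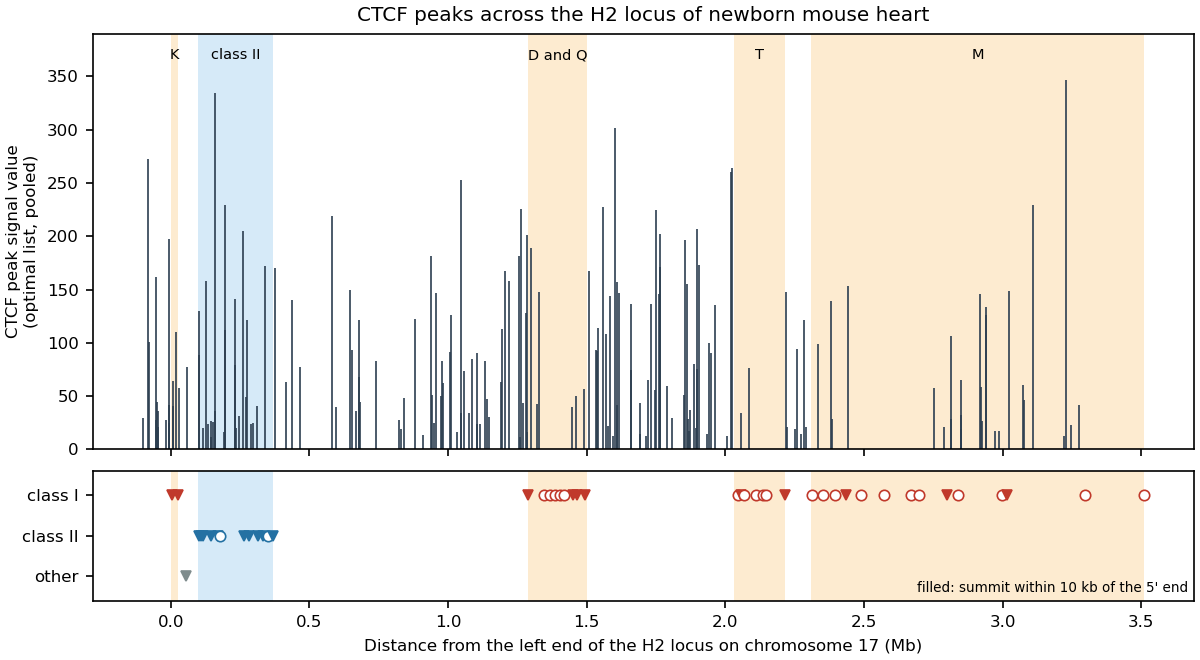
CTCF peaks across the H2 locus, as pooled signal (upper panel) against distance in Mb from the left end of the locus, with the class I clusters shaded in orange and the class II cluster in blue. The lower panel gives each H2 5′ end, filled where a summit lies within 10 kb, and the longest empty stretch, of 307.7 kb, lies in the M cluster.

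A core with at most 2 mismatches lay within 50 bp of 140 of the 177 summits, or 79.1% (interval 72.4% to 84.8%), against 71.6% for the rest of chromosome 17 and 3.95% and 3.39% in windows of the same size 1000 bp to either side of the locus summits. Near H2 5′ ends the share was 77.8%, against 79.4% elsewhere in the locus. The strongest peaks of the locus stood mostly away from H2 genes. The first was 2.80 kb upstream of the olfactory receptor gene Olfr94, at 346 (185 in replicate 1 and 162 in replicate 2), followed by that at H2-DMb2. Others were nearest to 2300002M23Rik (302), Kifc1 (273), Prr3 (264 and 260), Vwa7 (252), Tap1 (229), Olfr90 (229) and Psors1c2 (227). The peak nearest to Tap1, the gene of a chain of the peptide transporter, lay 16.59 kb upstream of it and inside the class II cluster.

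Genes that serve antigen presentation outside the H2 names were set beside the members. Of 32 such genes, 20 had a summit within 10 kb, or 62.5%, and 17 of the 27 that are not on chromosome 17, against 50.3% of all protein-coding genes. Ifi30, the lysosomal thiol reductase, had the strongest at 309, with 168 in replicate 1 and 141 in replicate 2. Psmb10, a chain of the immunoproteasome, had 252, with 131 in replicate 1 and 120 in replicate 2. Tapbp and Tap2, of the class I loading complex and its transporter, had 162 and 141. Among the regulators, Rfxap had 173 and Nlrc5, the activator of class I genes, had 16.5 within 1 kb. B2m, the light chain of class I, Cd74, the invariant chain of class II, and Ciita, the activator of class II genes, had none, nor had Tap1, Psmb9, Rfxank, Lgmn, Cd1d1, Fcgrt, Cd4, Cd8a and Cd8b1.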

How the data were processed

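Peak lists of CTCF ChIP-seq from 2 libraries (replicates 1 and 2 of the labels) were used. Per the labels, coordinates are on mm10. Per the text files deposited beside the lists, the authors called 3 relaxed lists, on each library and on both together, each against a control alignment not used here, and derived the optimal and conservative lists by IDR. The peak signal was computed by the authors, and its scale, like the aligner and the peak caller, was not given in the sources used here. Read depth is unknown, so signals carry no counting interval.

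Summits are the deposited peak start plus the offset. Gene 5′ ends are those of GENCODE M21 gene records. A match to the CTCF core consensus (14 bases, both strands, at most 2 mismatches) was sought within 50 bp of each summit in the GRCm38 sequence. Words of 50 bases were counted over the genome on both strands. For copies, 300 bp around each summit were compared with the locus by blastn 2.17.0, with 150 bp at 80% identity as the minimum, and families were made from sites less than 50% masked. Cores of copies were sought within 80 bp, so a copy can show a core that the count over locus peaks does not include. Other steps used Python 3.11.15 and numpy 2.4.6. The core search, the word counts and the window counts were tested on simulated data.

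The members and gene lists were chosen with earlier results of these data known. The text names every H2 gene, the genes at the 10 strongest peaks of the locus and the antigen presentation genes with the strongest peaks or none. Copies were named after their values were seen. Alternatives were the conservative list, the strongest peaks of 1 library alone, other windows, 5′ ends, flanks, mismatch limits, word lengths and identities. The sequence of 1 class II site is not reported here.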

Additional observations from a re-analysis of the deposited data

How the results depend on the processing

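Of 53 alternative values, 39 stayed close to those reported. The class I share and the class I median were below those of class II in 9 of 9 settings. With a window of 5 kb, 31.1% of H2 genes, 25% of class I genes and 50% of class II genes had a summit. At 50 kb the shares were 84.4% of H2 genes, 78.1% of class I genes and 100% of class II genes. Peaks at or above the median signal of the list gave 25.3 per Mb in the locus. The log2 difference of class I minus class II medians was -0.57 at 5 kb, -0.34 at 50 kb, -1.25 for conservative peaks, -1.31 with the 5′ ends of all transcripts, -1.48 for protein-coding genes, -1.36 with neighbouring 5′ ends counted once, and -1.46 to -1.44 with a library left out. Cores with at most 1 mismatch lay in 50.3% of locus peaks. With either library left out, 43.8% of class I and 83.3% of class II genes had a summit, and the peaks per Mb were 47.2 to 49.9. No paired analysis was possible because there is 1 group. Signals of weak peaks and of sites in copied sequence are the least certain, since read depth, read length and the treatment of reads with several places are unknown.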

Other observations

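Cores that are part of repeats were a group of their own. Of the 140 cores of locus peaks, 32 had at least 7 of 14 bases masked as repeat in the reference, and 11 of these were 1 and the same 14 bases, CCAGAAGAGGGCAT. Near H2 genes, such cores stood at H2-K2, H2-K1 and H2-DMa. The H2-K1 summit 8325 bp past the 5′ end, with a pooled signal of 110, had 11 of 14 core bases masked, and the H2-K2 summits at 9673 and 9243 bp past the 5′ end, with signals of 42.0 and 24.4, had 14 of 14. A further H2-K2 summit, 2455 bp upstream at 40.3, had 8 of 14, and the strongest H2-DMa summit, 1517 bp past the 5′ end at 26.4, had 13 of 14.

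Among genes of the locus chosen as landmarks, 8 of 11 had a summit within 10 kb (72.7%), near the 64.9% of the other protein-coding genes of the locus. Notch4 had the strongest, at 219 (123 in replicate 1 and 98.5 in replicate 2), and Tnf and Lta, the neighbouring cytokine genes, had the same peak, at 158 (78.0 in replicate 1 and 74.5 in replicate 2). Cfb, a complement gene, had 122. Daxx, C4b and Mog had none, and the nearest summit to Daxx lay at 10.13 kb.

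A family of 3 copies near H2-M10.3, H2-M10.5 and H2-M10.6 shared 1 core, CCAGAAGGTGGCAA, which lies more than 50 bp from the summit at the H2-M10.3 and H2-M10.5 copies, and the libraries did not give it alike. The pooled signals were 29.0, 28.8 and 65.4. The H2-M10.3 copy had a peak only in replicate 1, the H2-M10.5 copy only in replicate 2, and the H2-M10.6 copy had 16.1 in replicate 1 and 39.7 in replicate 2.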
